A study of Mus musculus with 30 samples.

Results

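Spleens of Tg26 mice with lymphoma were compared with spleens of FVB/N control mice, using 6 lymphoma arrays and 3 FVB/N arrays of the 30 arrays in the series (Affymetrix Mouse Gene 1.0 ST, total RNA, 1 array per spleen). The arrays were chosen by the state and tissue in their labels, not by any measured value. Tg26 mice carry a pNL4-3 HIV-1 provirus from which part of gag-pol is missing, so that no infectious virus is made, and the mice used were heterozygous. All animals were on the FVB/N background and were killed at 5 to 12 months of age, and by the labels about 15% of Tg26 mice develop lymphoma. The labels name the FVB/N animals only as controls, and give no sex and no age for single mice. The 2 groups differ in the transgene as well as in the lymphoma. Part of the lymphoma spleens are also of another batch than the FVB/N spleens, and sex-linked genes set some of them apart from all FVB/N spleens. A difference between the groups therefore cannot be assigned to any of these alone. Tg26 mice without symptoms (6 spleens) are given beside some results to show where the transgene is present without lymphoma. The study's design text names genes and pathways associated with B cell lymphoma as its question.

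As background, a healthy spleen holds mostly mature B cells, which display a finished antigen receptor, together with T cells, natural killer (NK) cells and macrophages, and it makes blood cells in the red pulp. Early B cell precursors instead express the recombinase that cuts receptor genes and a surrogate light chain that stands in for the true one, and they are normally found in bone marrow. Genes of both stages, of the cell cycle and of the other spleen cells are therefore described below by role.

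Values are log2 expression levels, on which a difference of 1 is a 2-fold change, and levels of different genes are not compared with each other. All 3 FVB/N spleens and lymphoma spleens 1 to 3 belong to batch A by the labels, and lymphoma spleens 4 to 6 to batch B. Each difference is given with its standard error (SE) from a linear model over all 30 arrays with 6 surrogate variables (estimated columns that stand for unexplained variation between arrays). Within batch A, 3 mice against 3 were compared in a model of its 18 arrays without surrogate variables, and the count of calls or the genes called there is given beside the lists described, with the values of some genes. A gene was called at an adjusted p under 0.05 in limma with Benjamini-Hochberg adjustment over 19938 genes. Spleens of different mice are replicates, but the residual spread behind each p-value is pooled over all 6 groups of the model, lymph nodes included. Each mouse gave a spleen and a lymph node, and neither model has a term for the mouse. In whole tissue, fewer cells of a type and less RNA per cell cannot be told apart.

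Several arrays stood apart before any contrast was read. FVB/N spleens 2 and 3 were very alike: their difference had an SD of 0.204 over 35556 probe sets and no gene differed by over 1, whereas FVB/N spleen 1 differed by over 1 from both in 134 genes. The SD of 0.204 was the lowest of any pair of spleens within a group and batch. Pairs of asymptomatic spleens of batch A had SDs of 0.219 to 0.250, with 3 to 8 genes differing by over 1. Those of batch B had SDs of 0.347 to 0.408, with 89 to 120 such genes. The labels give FVB/N spleens 2 and 3 as separate mice. The spleen of lymphoma mouse 4 was named as lymphoma in its title and description but had the disease code of the control mice. It was kept as lymphoma by its description, not by a measured value. Its Rag1 level was 11.36 against 5.91 to 6.16 in the FVB/N spleens. Xist, the RNA of the inactive X chromosome, was at 11.37 and 11.06 in lymphoma spleens 3 and 5 and at 5.33 or less in the other 13 spleens. The spleen factors Tlx1 and Nkx2-3 were near or below the array medians (6.67 to 6.89) in both groups, with means of 6.18 and 6.82 in FVB/N and of 6.21 and 6.54 in lymphoma. Cd79a, part of the B cell receptor, was well above them in both (means 11.18 and 11.14).

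In all, 2462 genes were called, of which 1415 (7.1%) were higher and 1047 (5.25%) were lower in lymphoma, and 935 of them differed by at least 1. Within batch A, 1725 genes (8.65%) were called higher and 1452 (7.28%) lower. Both fits called 1621 genes with the same sign, which is 65.8% of the calls of the first and 51.0% of the calls of the second. Without any model, all 6 lymphoma spleens lay above all 3 FVB/N spleens in 8.38% of genes and below them in 12.5%. The number of calls turned on single mice: it was 1605 without FVB/N mouse 3 and 4495 without lymphoma mouse 5. Counting FVB/N spleens 2 and 3 as 1 averaged sample left 1486 calls, and with FVB/N mouse 1 as the only control 530 remained. Leaving out lymphoma mice 3 and 5 gave 3994. The shares over all genes are the measure for the list counts below. A few calls in a short list can lie near those shares and are not read as a result about the list.

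**Figure D1:**
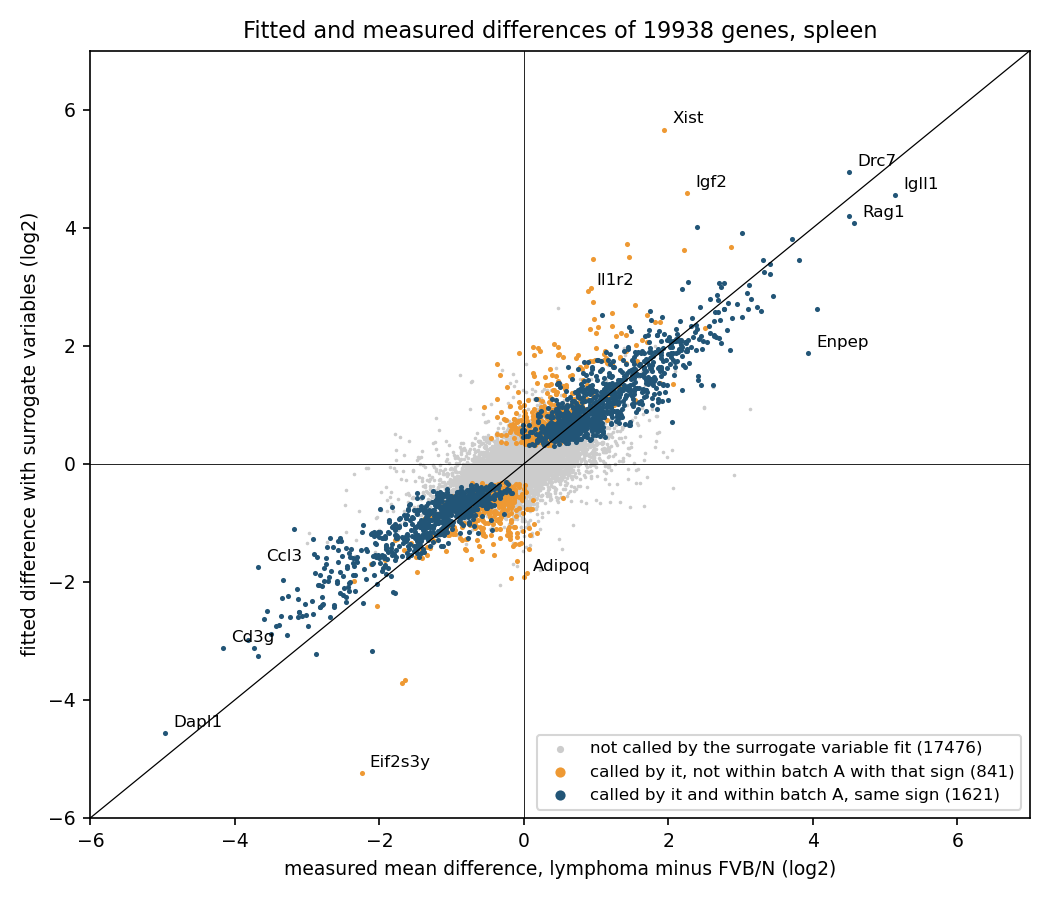
Difference between lymphoma and FVB/N spleens for 19938 genes: the plain difference of group means (horizontal axis, log2) against the difference fitted with surrogate variables (vertical axis, log2), with the diagonal marking equality. The 1621 genes called in both fits with the same sign are dark blue, and Xist (fitted 5.66), Igf2 (4.58), Eif2s3y (-5.24) and Adipoq (-1.91) are among the genes whose fitted value lies far from it.

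The largest rises held genes of the early B cell precursor. Igll1, the lambda 5 chain of the surrogate light chain, had levels of 6.68, 6.60 and 6.53 in the FVB/N spleens and between 10.16 and 12.88 in the lymphoma spleens, with a median of 11.86. The groups did not overlap, and the fitted difference was 4.55 ± 0.43 (SE; limma, adjusted p = 2.48e-07), and 5.74 within batch A. With the 9 arrays of the 2 groups alone the adjusted p was 0.00017. Rag1, one chain of the recombinase, was at 6.16, 6.16 and 5.91 in FVB/N and at 9.73 to 11.36 (median 10.84) in lymphoma, a rise of 4.07 ± 0.46 (adjusted p = 2.20e-06). In each of the 6 lymphoma spleens both genes exceeded every FVB/N and every asymptomatic value, the highest of which was 6.71 for Igll1 among asymptomatic spleens.

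The remaining members of the recombination and surrogate light chain list followed. Of its 7 genes 6 rose in both fits, with a median difference of 2.71 over the list against -0.0086 over all genes. Rag2, the partner of Rag1, was at 4.22, 4.03 and 3.94 in FVB/N and at 6.67 to 7.26 in lymphoma (2.71 ± 0.33, adjusted p = 4.61e-06). Vpreb1, which pairs with Igll1, was at 6.81, 6.67 and 6.88 in FVB/N and at 8.13 to 10.29 in lymphoma, Vpreb2 rose by 1.70, and Vpreb3, a chaperone-like protein of immature B cells, rose by 2.87. All of these were separate between the groups, as were 8.38% of all genes in that direction. The gene that did not pass was Dntt, the terminal transferase that adds bases at receptor joints: it was at 5.60, 5.41 and 5.74 in FVB/N, at 8.30 in lymphoma spleen 3 and at 5.06 to 5.88 in the other 5 lymphoma spleens. The count of 6 held with any 1 mouse left out and with FVB/N mouse 1 as the only control.

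The promoters of Igll1 and Vpreb1 are shown because these neighbouring genes on chromosome 16 rose together and because both windows hold the E box CAGGTG, which E2A-type factors can bind. They run from 250 bases before to 50 after the start (RefSeq, GRCm38.p6), printed 5′ to 3′ on the gene's strand with the E box of either strand in capitals.
Igll1, chr16:16863936-16864235, minus strand: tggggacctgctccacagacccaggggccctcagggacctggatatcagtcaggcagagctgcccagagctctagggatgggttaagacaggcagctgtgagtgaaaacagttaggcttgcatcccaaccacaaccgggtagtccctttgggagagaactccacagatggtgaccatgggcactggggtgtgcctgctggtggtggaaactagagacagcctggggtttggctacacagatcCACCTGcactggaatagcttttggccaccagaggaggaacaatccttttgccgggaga
Vpreb1, chr16:16869206-16869505, minus strand: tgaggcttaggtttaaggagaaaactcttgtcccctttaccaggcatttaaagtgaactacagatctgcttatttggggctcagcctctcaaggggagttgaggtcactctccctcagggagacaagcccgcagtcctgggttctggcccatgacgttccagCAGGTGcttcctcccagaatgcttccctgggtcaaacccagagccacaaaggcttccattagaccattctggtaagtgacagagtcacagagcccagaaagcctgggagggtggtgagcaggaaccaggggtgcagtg
The motif was searched on both strands, where it reads CAGGTG or CACCTG. It was in the windows of 4 of the 7 list genes (57.1%: Rag1, Igll1, Vpreb1 and Vpreb2). Of all 27025 genes with a window 22.6% held it, a gene counting once where any of its windows did. Windows on 1 chromosome were left out of these and the later motif counts. The E box was as frequent in B cell receptor signalling genes (8 of 14, 57.1%). It was present in 8 of 17 T lineage genes (47.1%), a list in which most measured genes fell. The EBF core CCCNNGGG was in 1 of the 7 genes (Igll1) and in 15.4% of all genes. A match describes letters and is not a bound site.

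Of 20 regulators and surface markers of B cell precursors 8 rose and 1 fell, against 7.1% and 5.25% of all genes. Within batch A 6 rose and 2 fell, against 8.65% and 7.28%. The falls lay near those shares and are not read as a result about the list. Cd93, a receptor on immature B cells, was at 7.77, 7.62 and 7.65 in FVB/N and at 10.67 to 11.20 in lymphoma (3.46 ± 0.26, adjusted p = 1.13e-08). Myb, a transcription factor of blood precursors, rose by 2.99 from 7.96 to 8.43 in FVB/N to 10.62 to 11.20. Sox4 rose by 2.17, Tcf3, which encodes the E2A proteins, by 0.69, and Erg, an Ets family factor, by 2.84. Erg was at 6.41, 6.14 and 6.00 in FVB/N and at 8.87 to 10.47 in lymphoma without overlap.

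Enpep, the aminopeptidase also known as the BP-1 antigen of pre-B cells, divided the lymphoma spleens. It was at 5.21, 5.30 and 5.49 in FVB/N and at 10.53, 11.03, 9.77 and 10.46 in lymphoma spleens 1, 2, 3 and 6, but at 6.70 and 7.14 in spleens 4 and 5. All 6 were above the FVB/N values. Its fitted difference was 1.87 ± 0.51 (adjusted p = 0.0156), against a plain mean difference of 3.94 and 5.11 within batch A, and without lymphoma mouse 1 the adjusted p was 0.0568. Il7r, the receptor for the growth factor of B precursors, and Cd24a rose by 0.93 and 0.76 in the fit, but their groups overlapped and neither was called within batch A. Flt3, a cytokine receptor of early progenitors and dendritic cells, fell by 1.05, from 7.94 to 8.31 in FVB/N to 6.15 to 7.18 in lymphoma. Ebf1, Pax5, Foxo1 and Kit did not pass in either fit. Without lymphoma mouse 1 the list's rises numbered 5 and without lymphoma mouse 4 its falls numbered 3.

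Several of the 12 largest rises belong to no B cell list. Drc7, a dynein regulatory protein of motile flagella, was at 5.61, 5.68 and 5.67 in FVB/N and at 9.30 to 10.79 (median 10.24) in lymphoma, a rise of 4.94 ± 0.37 (adjusted p = 1.13e-08). Ptgr1, which reduces prostaglandins and leukotrienes, rose by 4.19 from 5.86 to 6.29 to 9.91 to 11.09. Gas2l3, a linker of actin and microtubules in dividing cells, rose by 3.82, and Lgr5, a receptor for R-spondins, by 3.25 with a lymphoma range of 7.77 to 10.28. The adhesion receptors Adgrl2 and Adgrg1 rose by 2.63 and 3.38. Tmem255a rose by 3.45 and Hmgcll1, a lyase-like enzyme of ketone metabolism, by 3.21. None of these overlapped between the groups, and over all genes 8.38% were separate in that direction. The genes were picked by the size of their measured rise, so nothing is read from their separation. For Adgrl2 the asymptomatic spleens reached 7.47, above the FVB/N maximum of 6.64 and below the lymphoma minimum of 9.91. The rise of Adgrl2 was larger within batch A (3.86).

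**Figure D2:**
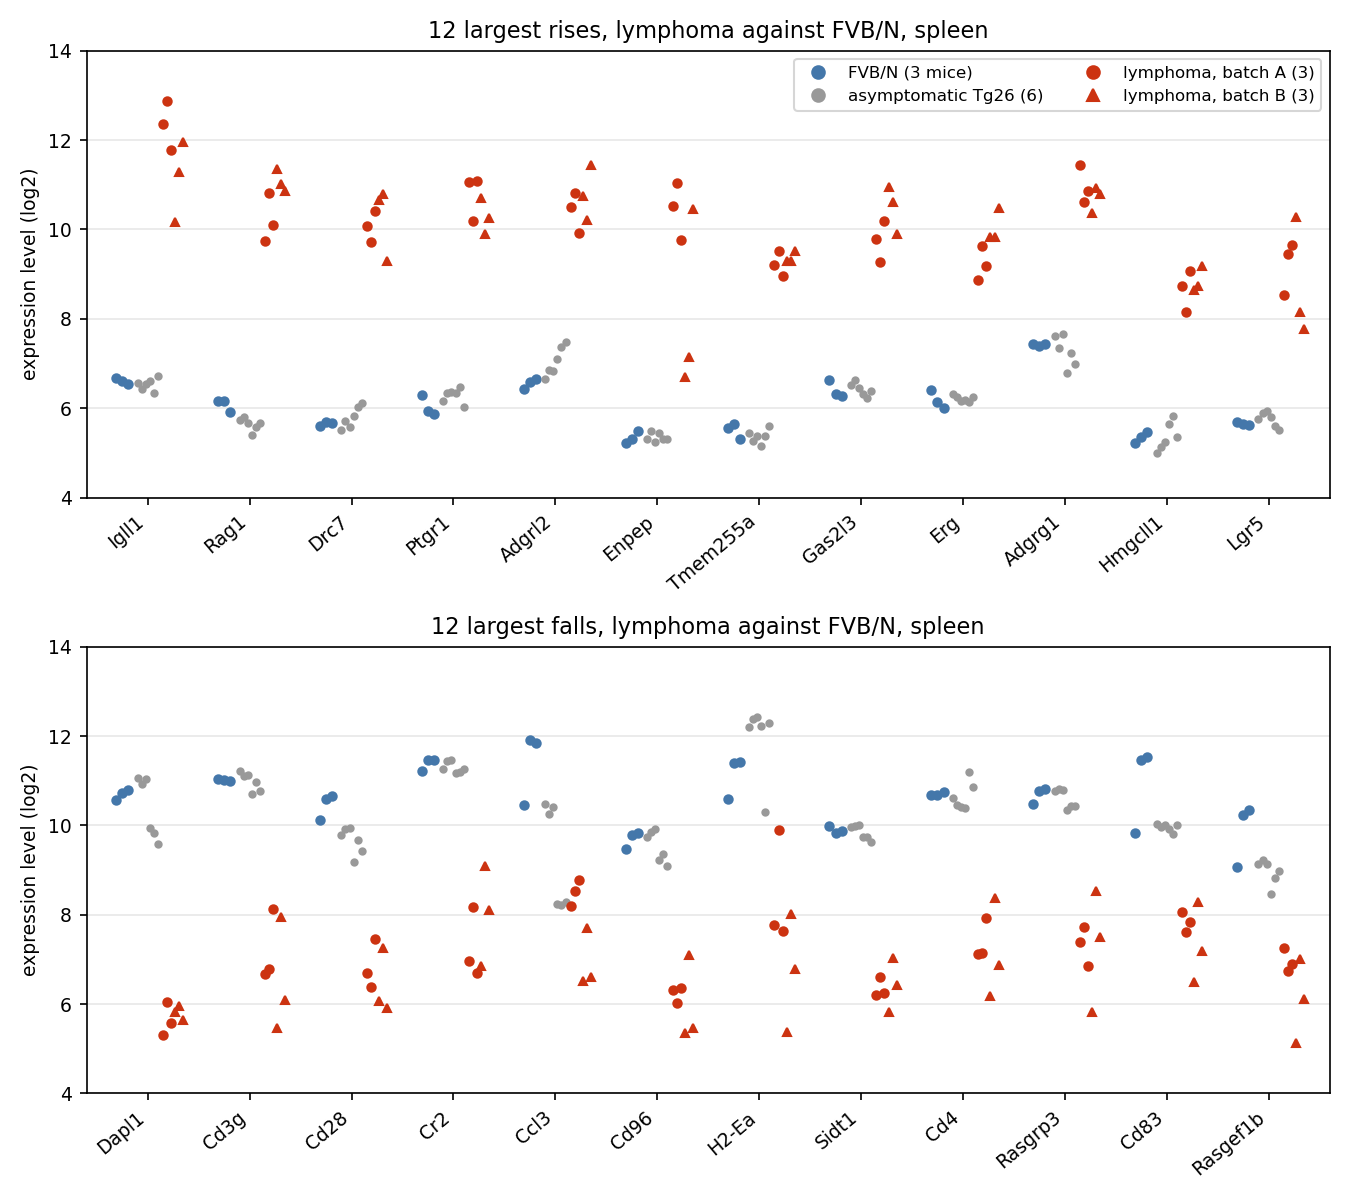
Levels (log2) in each spleen of the 12 genes with the largest rises (upper panel) and the 12 with the largest falls (lower panel): FVB/N in blue, asymptomatic Tg26 in grey, lymphoma in red, with circles for batch A and triangles for batch B. In all 24 genes, picked by the size of the change, the red points are separate from the blue ones. Over all genes 8.38% were separate upward and 12.5% downward. Enpep has 2 low lymphoma spleens at 6.70 and 7.14.

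The receptors of the mature B cell fell. Of 18 measured genes 11 fell and none rose, and within batch A 15 fell. The list's median difference was -1.31, and -1.94 within batch A, against -0.0242 over all genes there. Cr2 (CD21), which binds complement fragments, was at 11.21, 11.47 and 11.47 in FVB/N and at 6.70 to 9.09 (median 7.54) in lymphoma, a fall of 3.12 ± 0.40 on the log2 scale (adjusted p = 1.19e-05). Ms4a1, which encodes CD20, was at 11.97, 12.09 and 12.11 in FVB/N and at 7.61 to 10.61 in lymphoma (-2.37 ± 0.45, adjusted p = 0.000771). In both genes lymphoma spleen 5 held the highest lymphoma level, and no lymphoma spleen reached the FVB/N range.

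Homing and activation receptors were among the falls. Ccr7, a chemokine receptor that guides cells into T zones, fell by 2.26, Cxcr5, which guides B cells into follicles, by 1.99, and S1pr1, needed to leave lymphoid tissue, by 1.95. Cd40, the receptor for T cell help, was at 10.43, 10.40 and 10.46 in FVB/N and at 7.18 to 8.86 in lymphoma (-1.54 ± 0.24). Fcer2a, which encodes CD23, had FVB/N levels of 11.14, 11.50 and 11.56 and lymphoma levels of 7.39 to 10.08. It fell within batch A (-3.29, adjusted p = 0.00899), but did not pass with surrogate variables (-1.35, adjusted p = 0.0995). Cd37 and Cd1d1 did not pass in either fit. The mean level of the list was 10.56, 10.69 and 10.68 in FVB/N, between 8.11 and 8.90 in 5 lymphoma spleens and 9.47 in lymphoma spleen 5. Without lymphoma mouse 5, 16 of the 18 fell, and with FVB/N mouse 1 as the only control 5 did.

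In the signalling chain below the B cell receptor 2 of 17 genes rose and 2 fell, against 7.1% and 5.25% of all genes. Within batch A none rose and 5 fell. The number of falls moved with the fit: it was 5 over the 15 spleen arrays with batch as a term, 7 without lymphoma mice 3 and 5, and 11 with surrogate variables of the spleen arrays alone. Cd79a was at 11.18 on average in FVB/N and 11.14 in lymphoma, and Cd79b, Blnk, Syk, Plcg2 and Prkcb did not pass in either fit. Malt1, a protease that carries receptor signals to NF-kB, was at 10.26, 10.46 and 10.43 in FVB/N and at 8.14 to 9.58 in lymphoma, without overlap (-1.23 ± 0.26, adjusted p = 0.00238). Bank1, an adaptor, fell by 1.22. Btk, a kinase of the chain, rose by 0.64, with its 6 lymphoma levels (9.89 to 10.52) just above the FVB/N ones (9.71 to 9.78), and Dok3 was called higher by 0.51 in the fit, although its plain mean difference was -0.37. Neither was called within batch A. Without lymphoma mouse 5 no gene of the list was called higher and 5 were called lower.

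In the germinal centre list 2 of 13 rose and 2 fell, against 7.1% and 5.25% of all genes. Stmn1, a microtubule protein of dividing cells, rose by 1.68, and Pou2af1, a B cell co-activator, by 0.69, while Fas fell by 1.28 and Efnb1 by 0.54. Of these 4 genes Stmn1 was called within batch A (2.21), but Pou2af1, Fas and Efnb1 were not (adjusted p = 0.137, 0.126 and 0.260), and Bcl6 and Spib were called lower there. Bcl6, the repressor that defines germinal centre cells, was at 9.31, 9.52 and 9.48 in FVB/N and at 7.42 to 9.08 in lymphoma. Its difference within batch A was -1.44 (adjusted p = 2.77e-05), and it did not pass with surrogate variables over all arrays (-0.60, adjusted p = 0.0745). Without lymphoma mouse 5 the falls of this list numbered 7, and with surrogate variables of the spleen arrays alone 8. Of 18 plasma cell and secretion genes Mzb1, Sdc1 and Prdm1 rose and Cd28 fell, beside the same shares of all genes. Within batch A Sdc1 and Prdm1 were not called (adjusted p = 0.300 and 0.948), while Mzb1 and Slamf7 were higher and Cd28 and Edem1 lower. The plain mean difference of Prdm1 was slightly negative (-0.070). Only Mzb1, a protein of antibody-secreting and marginal zone B cells, was separate among the rises, with 9.56 to 9.85 in FVB/N and 10.56 to 11.20 in lymphoma. Without lymphoma mouse 4 the rises numbered 1.

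Transcripts of 8 of the 13 genes of class II antigen presentation fell and none rose, and within batch A 9 fell. Ciita, the co-activator on which class II transcription depends, was at 10.07, 9.89 and 9.95 in FVB/N and at 6.93 to 9.09 (median 7.29) in lymphoma, a fall of 1.58 ± 0.23 (adjusted p = 4.34e-05), with 2.81 within batch A. Cd74, the invariant chain, fell by 0.78, from 12.88 to 13.16 to 10.57 to 12.53. H2-Ea, a class II alpha chain, was at 10.59, 11.39 and 11.43 in FVB/N and at 5.38 to 9.90 in lymphoma (-2.50 ± 0.72, adjusted p = 0.0218). Its call was lost under 7 of the other settings, among them each of FVB/N mice 2 and 3 and lymphoma mice 1, 2 and 6 left out. Lymphoma spleen 5 had the highest mean of the list among lymphoma spleens (9.57, against 8.11 to 9.13 in the others and 10.32 to 10.55 in FVB/N). The number of falls was 2 with FVB/N mouse 1 as the only control, 3 without FVB/N mouse 3 and 12 without lymphoma mouse 5.

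Of 13 class I and immunoproteasome genes 1 fell and none rose, against 5.25% and 7.1% of all genes, and within batch A none was called. The gene that fell was Tapbpl, a peptide editor, by 0.51 (adjusted p = 0.0485). B2m, the class I light chain, had means of 13.04 in FVB/N and 12.50 in lymphoma with overlapping groups.

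T lineage genes fell as a group. Of 21 genes 19 fell in both fits and none rose, and the median difference was -2.33. Cd3g, which encodes the CD3 gamma signalling chain, was at 11.04, 11.02 and 11.00 in FVB/N and at 5.47 to 8.12 (median 6.74) in lymphoma, a fall of 3.13 ± 0.51 (adjusted p = 0.00016). Cd4 was at 10.67, 10.69 and 10.76 in FVB/N and at 6.19 to 8.37 in lymphoma (-2.75 ± 0.39), and Cd8a at 9.80, 9.69 and 9.63 and at 6.65 to 7.09 (-2.38 ± 0.28). The levels of helper and cytotoxic markers thus fell side by side, and for all 19 genes the groups were separate. Over all genes 12.5% were separate in that direction. Themis, needed for T cell development, fell by 2.91 and Bcl11b, a T lineage factor, by 2.00.

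The 2 genes that did not pass were Cd2 and Gata3. Asymptomatic spleens had list means of 9.45 to 9.69, in the range around the FVB/N means of 9.54 to 9.57, against 6.33 to 7.55 in lymphoma. With any 1 mouse left out 18 to 20 genes fell, and with FVB/N mouse 1 as the only control 14 did. Outside the list, Dapl1 was one of the 12 largest falls: it was at 10.57, 10.73 and 10.79 in FVB/N and at 5.32 to 6.04 in lymphoma (-4.56 ± 0.42, adjusted p = 1.85e-07). Cd28, the co-stimulatory receptor, fell by 2.98, Cd96, a receptor of T and NK cells, by 2.63, and Sidt1 by 2.88.

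Regulatory T cell and checkpoint genes were mixed, with 3 of 18 higher and 3 lower, and 3 and 6 within batch A. Over all genes 7.1% were higher and 5.25% lower in the fit. Cd244a rose by 2.26, Il2ra, a chain of the interleukin-2 receptor, by 1.72 and Entpd1 by 0.68. Il2ra was at 8.02, 7.99 and 8.08 in FVB/N and at 8.54 to 9.78 in 5 lymphoma spleens, but at 6.67 in lymphoma spleen 4. Tox, Havcr2 and Tnfrsf18 fell by 1.13, 1.31 and 0.94. Foxp3, which defines regulatory T cells, had means of 7.86 and 6.76 and did not pass. Without FVB/N mouse 2 the rises numbered 1, and without lymphoma mouse 3 the falls numbered 10. They numbered 11 with surrogate variables of the spleen arrays alone.

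NK and cytotoxic genes fell as well. Of 20 genes 14 fell and none rose in both fits. Ncr1, the NK receptor NKp46, was at 8.39, 8.74 and 8.79 in FVB/N and at 4.59 to 6.86 in lymphoma (-2.39 ± 0.28, adjusted p = 2.83e-06). Txk, a kinase of T and NK cells, fell by 2.52, Ctsw, a protease of cytotoxic cells, by 1.92, Xcl1 by 1.91 and perforin (Prf1) by 1.57. Ifng was at 7.82 in FVB/N spleen 1, at 9.42 and 9.51 in FVB/N spleens 2 and 3, and at 5.62 to 6.64 in lymphoma. Klrd1 and Gzmb did not pass in either fit. Without FVB/N mouse 3 the falls numbered 9, and with FVB/N mouse 1 as the only control 6.

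**Figure D3:**
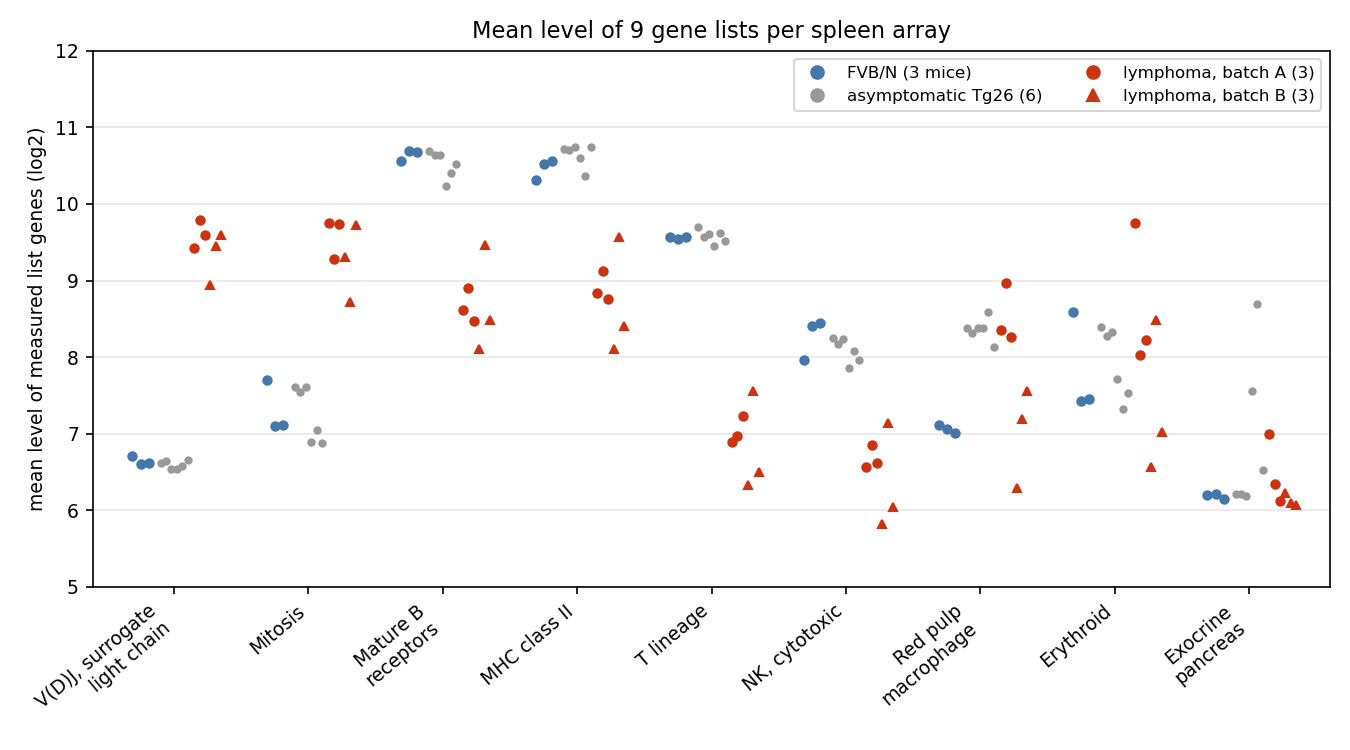
Mean level (log2) of the measured genes of 9 lists in each spleen: FVB/N in blue, asymptomatic in grey, lymphoma in red with circles for batch A and triangles for batch B. T lineage means are 9.54 to 9.57 in FVB/N and 6.33 to 7.55 in lymphoma, while the red pulp macrophage means of lymphoma spread from 6.29 to 8.97 around those of FVB/N.

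Genes of cell division rose. Each of the 23 measured mitosis and spindle genes rose in both fits, the median difference was 2.09, and each was separate between the groups. Over all genes 8.38% were separate in that direction. Bub1, a spindle checkpoint kinase, was at 7.07, 6.29 and 6.38 in FVB/N and at 8.20 to 9.77 (median 9.39) in lymphoma (2.57 ± 0.33, adjusted p = 9.01e-06). Kif11, a spindle motor, rose by 2.62, Ccnb2, a mitotic cyclin, by 2.27 and Plk1, a mitotic kinase, by 2.19. Mki67, the Ki-67 antigen, was at 9.59 in FVB/N spleen 1, at 8.29 and 8.30 in FVB/N spleens 2 and 3, and at 10.31 to 11.39 in lymphoma. The list mean ran from 7.11 to 7.71 in FVB/N, with spleen 1 highest, and from 8.73 in lymphoma spleen 5 to 9.76 in lymphoma spleen 1. All 23 kept their call with any 1 mouse left out, and 10 did with FVB/N mouse 1 as the only control.

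The promoters of 3 of these genes are shown because mitotic genes are known to share a pair of elements, the CHR element TTTGAA and the CCAAT box, and rose together here. Windows are as above, with TTTGAA and CCAAT of either strand in capitals.
Ccnb2, chr9:70421505-70421804, minus strand: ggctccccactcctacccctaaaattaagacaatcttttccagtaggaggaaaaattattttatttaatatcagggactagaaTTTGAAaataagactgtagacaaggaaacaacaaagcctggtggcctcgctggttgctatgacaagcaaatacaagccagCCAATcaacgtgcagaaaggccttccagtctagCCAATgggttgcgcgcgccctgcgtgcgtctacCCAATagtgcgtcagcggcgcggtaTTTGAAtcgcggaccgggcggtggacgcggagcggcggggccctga
Cdk1, chr10:69352863-69353162, minus strand: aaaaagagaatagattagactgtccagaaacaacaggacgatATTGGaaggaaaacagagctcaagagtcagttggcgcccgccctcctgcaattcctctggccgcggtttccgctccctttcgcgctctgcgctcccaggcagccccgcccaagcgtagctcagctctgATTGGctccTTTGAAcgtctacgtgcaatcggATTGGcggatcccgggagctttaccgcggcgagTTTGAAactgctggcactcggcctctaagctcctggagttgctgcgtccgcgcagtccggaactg
Plk1, chr7:122159185-122159484, plus strand: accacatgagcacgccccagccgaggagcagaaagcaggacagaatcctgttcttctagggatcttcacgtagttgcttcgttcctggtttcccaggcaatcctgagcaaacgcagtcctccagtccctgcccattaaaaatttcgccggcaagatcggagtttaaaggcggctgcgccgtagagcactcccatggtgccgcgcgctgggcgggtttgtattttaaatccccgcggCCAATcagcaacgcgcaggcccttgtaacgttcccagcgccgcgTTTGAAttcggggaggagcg
TTTGAA was in the windows of 15 of the 20 mitosis genes with an entry (75%) and in those of 20.2% of all genes, and CCAAT in 17 of 20 (85%) and in 41.1% of all genes. On the other strand these read TTCAAA and ATTGG. In DNA replication genes TTTGAA was in 2 of 19 (10.5%), and the E2F sites TTTCCCGC or TTTGGCGC were in 8 of 19 (42.1%), against 0 of 20 mitosis genes and 1.8% of all genes. The windows differ in base composition, which was not matched.

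DNA replication and nucleotide synthesis genes rose with them. Of 23 genes 20 rose, 21 did within batch A, and none fell. Rrm2, a subunit of ribonucleotide reductase, was at 9.24, 8.10 and 8.07 in FVB/N and at 9.75 to 11.17 in lymphoma (2.10 ± 0.29, adjusted p = 2.47e-05). Gins1, a helicase component, was at 6.34, 6.36 and 6.27 and at 8.02 to 8.75 (1.90 ± 0.22). Mcm2, Mcm3, Mcm4, Mcm5, Mcm6 and Mcm7, the ring of the replicative helicase, rose by 0.68 to 1.44, of which Mcm4, Mcm5 and Mcm7 overlapped between groups. Cdt1, Pold1 and Pcna were not called in the fit with surrogate variables. With FVB/N mouse 1 as the only control 2 genes were called, and the list mean was 8.46 in that spleen against 8.12 and 8.14 in FVB/N spleens 2 and 3.

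Among chromatin and DNA methylation regulators 6 of 21 rose and 2 fell, and within batch A the counts were again 6 and 2. Over all genes 7.1% rose and 5.25% fell, and within batch A 8.65% and 7.28% did. Those that rose included Uhrf1 and Dnmt1, which copy DNA methylation at replication (1.59 and 0.83), Ezh2, the H3K27 methyltransferase (1.57), and Hells (1.22). Ezh2 was at 9.12, 9.09 and 9.16 in FVB/N and at 9.76 to 11.14 in lymphoma without overlap. Kdm6b, an H3K27 demethylase, fell by 1.60, though it was at 9.59 in FVB/N spleen 1 and at 10.73 and 10.77 in spleens 2 and 3, and Kdm5b fell by 1.17.

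Myc itself did not pass (means 11.70 and 10.97, -0.68, adjusted p = 0.11). In the list of Myc and ribosome biogenesis genes 5 of 23 rose and none fell: Nop16 (0.92), Wdr12 (0.84), Pa2g4 (0.80), Cdk4 (0.63) and Cad (0.53). Within batch A 11 rose and 1 fell. Over all genes 7.1% rose in the fit, and within batch A 8.65% rose and 7.28% fell. Without lymphoma mouse 5, in which the list mean was 9.25 against 9.64 to 9.94 in the other lymphoma spleens, 12 rose, and without lymphoma mouse 2 only 1. The FVB/N means were 9.37 to 9.44. Of 14 amino acid transporters 3 rose, namely Slc43a1 (1.22), Slc38a1 (0.78) and Slc7a6 (0.63), against 7.1% of all genes. None of the 14 rose without FVB/N mouse 3. Within batch A the calls were Slc43a1 and Slc7a5 (1.56 and 1.13), while Slc38a1 and Slc7a6 did not pass (adjusted p = 0.129 and 0.0510).

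NF-kB subunits and targets fell. Of 17 genes 11 fell and none rose, and 12 fell within batch A. Nfkb2, a subunit precursor, was at 9.55, 9.89 and 9.89 in FVB/N and at 7.61 to 9.19 in lymphoma (-1.08 ± 0.14, adjusted p = 1.08e-05). Traf1, a target that binds receptors of the TNF family, had a mean of 9.21 in FVB/N and was at 6.15 to 7.56 in lymphoma (-1.68 ± 0.22). Tnfaip3, a feedback inhibitor, was at 9.78 in FVB/N spleen 1, at 10.96 and 11.09 in spleens 2 and 3 and at 6.55 to 8.85 in lymphoma (-1.67 ± 0.29). Rel and Relb, further subunits, fell by 0.81 and 0.89, while Rela and Icam1 did not pass. Lymphoma mouse 4 had the lowest list mean. Without FVB/N mouse 3 the falls numbered 8, without lymphoma mouse 5 they numbered 15, and with FVB/N mouse 1 as the only control 2.

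Cell death genes were mixed, with 2 of 19 higher and 2 lower, and 3 and 4 within batch A. Over all genes the shares were 7.1% and 5.25%, and 8.65% and 7.28% within batch A. Bcl2, which protects mature lymphocytes from death, was at 10.31, 9.89 and 9.89 in FVB/N and at 7.71 to 8.54 in lymphoma (-1.22 ± 0.18, adjusted p = 6.56e-05). The fall of Fas, whose groups overlapped, was not called within batch A. Bak1, a pore-forming effector, rose by 0.64, and Cdkn2c, a cell cycle inhibitor, by 1.16 from 6.27 to 6.53 to 7.44 to 8.54. Without lymphoma mouse 5 the falls numbered 6. Of 22 interferon response genes Ddx58 fell (-0.91) and none rose, beside the same shares of all genes. Within batch A the adjusted p of Ddx58 was 0.0526 and Rtp4 was called higher. Lymphoma spleen 2 had the highest list mean (8.54, against 6.42 to 7.50 in the other lymphoma spleens and 7.25 to 7.36 in FVB/N). Without lymphoma mouse 3 the fit called 12 of the 22 higher, without mouse 5 it called 8 and without mouse 2 it called 6.

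The count of red pulp macrophage genes called turned on the fit. In the fit over all arrays 2 of 19 genes rose and 1 fell, against 7.1% and 5.25% of all genes. Within batch A 10 rose, as did 10 over the 15 spleen arrays with batch as a term, 10 without lymphoma mice 3 and 5, and 13 with surrogate variables of the spleen arrays alone. Vcam1, by which red pulp macrophages hold other cells, was at 7.46, 7.33 and 7.10 in FVB/N, at 10.32 and 10.67 in lymphoma spleens 1 and 2, nearly as high in spleen 3 and at 6.79, 7.88 and 8.41 in spleens 4 to 6. Its fitted difference was 2.19 ± 0.71 (adjusted p = 0.0453), and within batch A 3.03 (adjusted p = 0.0131). C1qc, a chain of complement C1q, was at 6.71, 6.94 and 6.74 in FVB/N, at 8.65 to 9.72 in lymphoma spleens 1 to 3 and at 6.31 to 7.76 in spleens 4 to 6, so that the batch B spleens overlapped with FVB/N. The list mean was 7.01 to 7.11 in FVB/N, 8.26 to 8.97 in lymphoma of batch A, 6.29 to 7.56 in lymphoma of batch B and 8.13 to 8.59 in the asymptomatic spleens of both batches. Itgad rose by 0.69 and Ms4a7 fell by 1.12 in the fit, and neither was called within batch A. Spic, the factor that defines these cells, had means of 7.74 and 7.59 and did not pass. No gene of the list was called higher without FVB/N mouse 3, and 10 were without lymphoma mouse 5.

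The dendritic cell list had 4 falls among 20 genes, namely Ly6d (-3.22), which B precursors and plasmacytoid cells also carry, Siglech (-1.63), Fscn1 (-1.21) and Flt3, and without lymphoma mouse 3 the falls numbered 10. Within batch A 6 fell, Fscn1 not among them (adjusted p = 0.0769), and with surrogate variables of the spleen arrays alone 15 fell. Over all genes, the measure for each list of this paragraph, 5.25% were lower in the fit and 7.28% within batch A. In the list of marginal zone and sinus macrophages 1 of 12 fell (Cd36, -2.40), whereas within batch A Cd36 was not called (adjusted p = 0.319) and Cd209a was. Of 17 neutrophil granule genes Mmp9 and Il1r2 rose in the fit (2.22 and 2.92), both with overlapping groups, against 7.1% of all genes. Neither Mmp9 nor Il1r2 was called within batch A (adjusted p = 0.0572 and 0.836), where Camp was called higher.

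Of 16 erythroid genes 5 rose in the fit and 3 within batch A, but 1 of them, the transferrin receptor Tfrc, was separate between groups (8.47 to 8.59 in FVB/N, 9.43 to 10.39 in lymphoma, 1.82 ± 0.31), and dividing cells express it too. Alas2, the heme enzyme of red cell precursors, had overlapping groups (1.41, adjusted p = 0.15). The list mean was 8.59 in FVB/N spleen 1, 7.43 and 7.45 in spleens 2 and 3, and from 6.56 to 9.76 in lymphoma, so the FVB/N spleens differed among themselves by more than the group means (7.83 and 8.01) did. In the fit 14 genes were called without FVB/N mouse 1 and 1 without FVB/N mouse 3. Of 10 megakaryocyte genes Gp5 and Gp9 were called higher (0.85 and 0.77), with overlapping groups and, for Gp9, a plain mean difference of -0.27. Neither was called within batch A or without lymphoma mouse 5, and Itgb3 was called lower within batch A. For the erythroid and megakaryocyte counts, 7.1% of all genes were higher in the fit. Within batch A 8.65% were higher and 7.28% lower.

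None of 24 stroma and matrix genes was called by limma in either fit, while 4 had an unadjusted p under 0.05 in the first and 1 in the second. With any 1 mouse left out, at most 1 was called higher and 2 lower. Of 22 endothelial genes Erg, Eng, Egfl7 and Jam2 rose and Esam fell, against 7.1% and 5.25% of all genes. Without lymphoma mouse 5 the rises numbered 2. Within batch A Eng and Erg rose and none fell, and Egfl7, Jam2 and Esam did not pass (adjusted p = 0.177, 0.106 and 0.277). The share of rises there was near that of all genes (8.65%). Eng, endoglin, was at 7.15, 6.47 and 6.68 in FVB/N and at 9.38 to 10.38 in lymphoma (2.79 ± 0.34, adjusted p = 5.51e-06). Pecam1, Cdh5, Kdr, Tek, Tie1, Emcn and Plvap, which define blood vessel lining, did not pass in either fit. Jam2 was at 5.46 to 5.77 in FVB/N, at 6.39 to 7.77 in lymphoma and higher still in asymptomatic spleens (8.19 to 8.75). Of 14 lymphoid chemokine and follicular dendritic cell genes Cr2, which B cells carry too, fell and none rose (within batch A Cr2 and Fcer2a fell and Tnfsf11 rose), and Cxcl13, Ccl19 and Cxcl12 did not pass. The same shares of all genes stand beside these counts, with 7.28% lower within batch A.

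**Figure D4:**
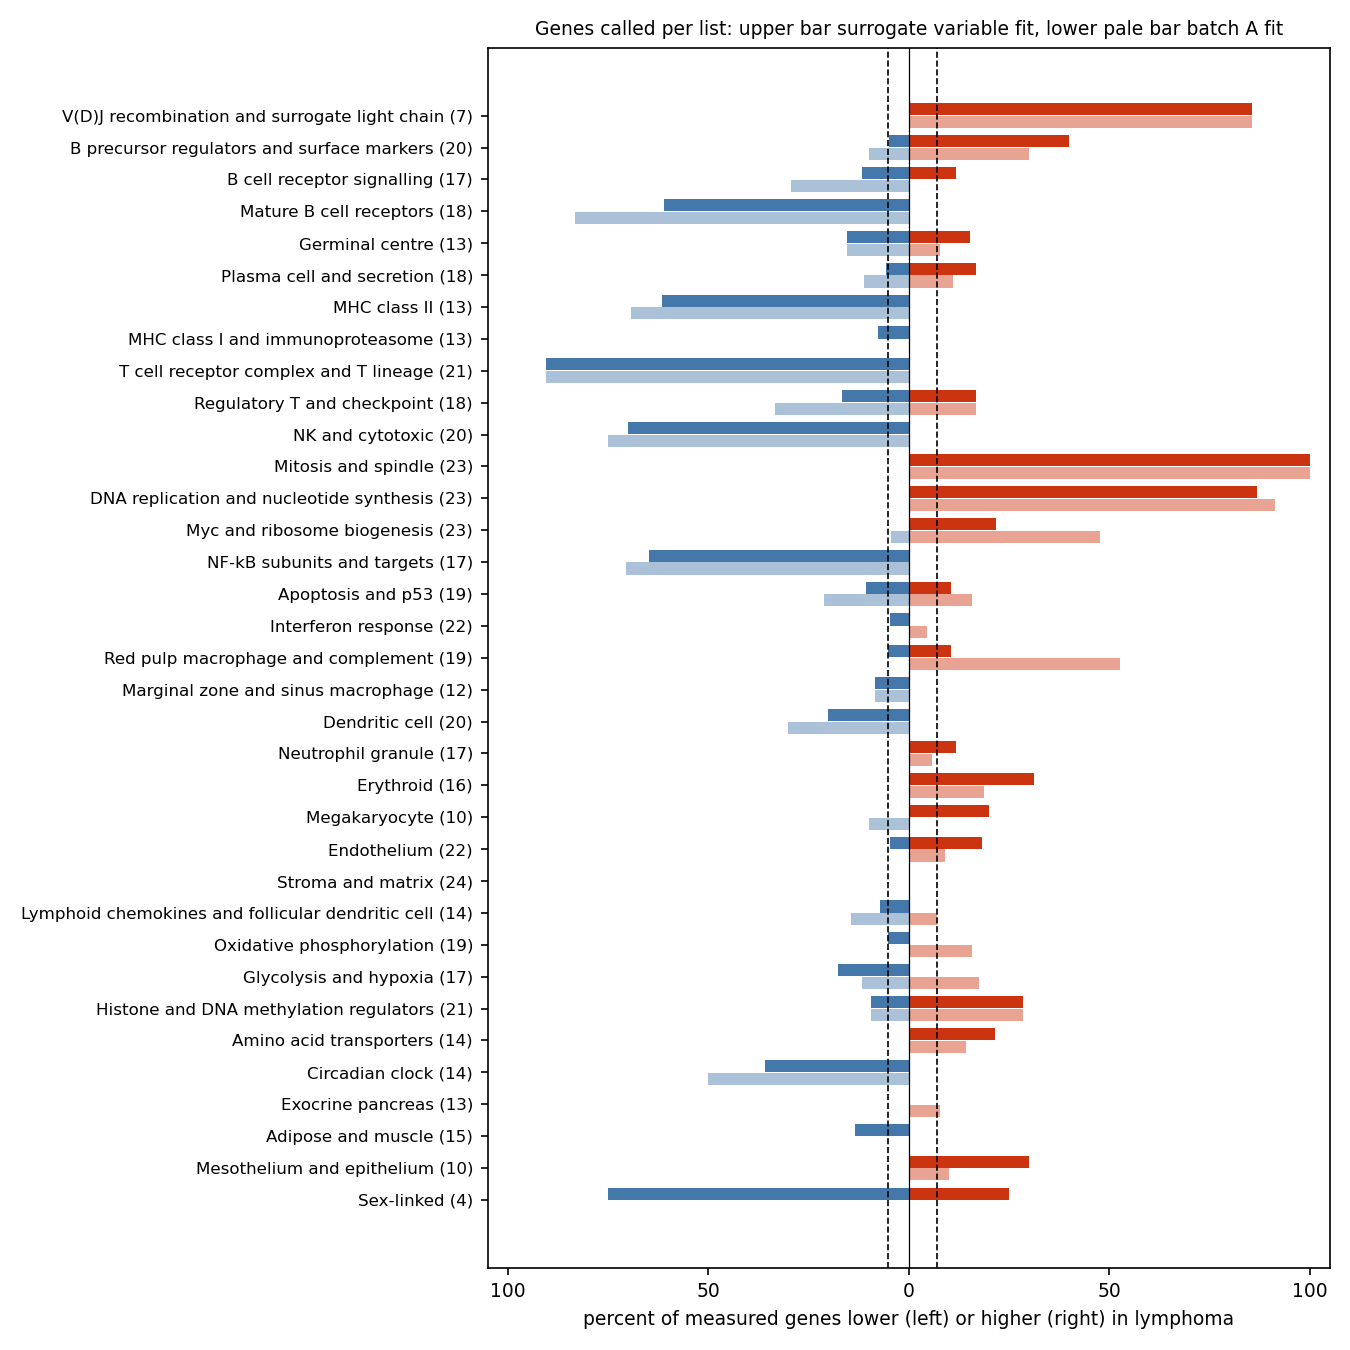
Share of the measured genes of each list (number in brackets) called lower (left, blue) or higher (right, red) in lymphoma, in percent, in the surrogate variable fit (upper, dark bar) and within batch A (lower, pale bar). Dashed lines mark the shares over all genes in the first fit (5.25% lower, 7.1% higher), and mitosis, replication, T lineage and recombination lists reach furthest beyond them in both fits.

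In some genes FVB/N spleen 1 lay apart from FVB/N spleens 2 and 3. Of the 134 genes in which it differed from both by over 1, 83 were higher in spleens 2 and 3, and 43 of these were called lower in lymphoma, against 5.25% of all genes. The 83 were picked by their high values in control spleens, so nothing is read from that share. With FVB/N mouse 1 as the only control 3 of the 43 were still called lower, and of all 1047 genes called lower 232 were. Without FVB/N mouse 3 alone these numbers were 16 and 676. Ciart, a repressor in the circadian clock, was at 7.28 in FVB/N spleen 1, at 10.67 and 10.73 in spleens 2 and 3, at 7.01 to 7.45 in asymptomatic spleens and at 6.57 to 7.06 in lymphoma. The fit gave -2.39 (adjusted p = 0.00699), although FVB/N spleen 1 lay within the asymptomatic range and just above the highest lymphoma spleen. Of 14 clock genes 5 fell, 7 did within batch A, and 1 did without FVB/N mouse 3. Dbp, a clock output factor, did not follow this split: it was at 8.16, 8.30 and 8.26 in FVB/N and at 7.19 to 7.76 in lymphoma (-1.02 ± 0.16). The time of day at which the mice were killed is not given in the labels, and its part was not tested.

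Of the 12 largest falls 3 showed the same division. Ccl3, a chemokine of activated cells, was at 10.46, 11.91 and 11.84 in FVB/N and at 6.51 to 8.78 in lymphoma (-1.75 ± 0.42, adjusted p = 0.00603). Ccl3 differed by -2.90 within batch A and -2.92 without lymphoma mouse 5. Its call was lost without FVB/N mouse 3 (adjusted p = 0.0658), with FVB/N spleens 2 and 3 averaged (0.0749) and with FVB/N mouse 1 as the only control (0.523). Cd83, an activation marker, was at 9.82, 11.45 and 11.53 against 6.48 to 8.29 (-2.58 ± 0.40), and Rasgef1b at 9.07, 10.22 and 10.34 against 5.13 to 7.27 (-2.27 ± 0.38). With FVB/N mouse 1 alone their adjusted p-values were 0.0864 and 0.168. For all of these FVB/N spleen 1 was still above every lymphoma spleen. Asymptomatic spleens of batch A and batch B also differed in Ccl3 (10.26 to 10.48 and 8.22 to 8.28) and in Fos, an immediate early gene chosen after its values were seen (11.45 to 11.55 and 9.30 to 9.86), and the FVB/N spleens are all of batch A.

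Some microRNA genes showed this split too, and the sequences of 4 of them, chosen after their values were seen, are given for that reason. Of 298 microRNA genes on the array, 1 (Mir181b-1) was called higher and 12 lower in both fits. Over all 19938 genes both fits called 921 (4.62%) higher and 700 (3.51%) lower, so the share of microRNA genes called lower was near that of all genes. In 10 of the 12, FVB/N spleen 1 had the lowest of the FVB/N values. The mature strands of the Mir23a, Mir27a and Mir24-2 cluster and of Mir155 are given 5′ to 3′ with the seed (bases 2 to 8) in capitals (RefSeq, GRCm38.p6).
mmu-miR-23a-3p, chr8:84208563-84208583, plus strand: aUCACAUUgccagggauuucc
mmu-miR-27a-3p, chr8:84208727-84208747, plus strand: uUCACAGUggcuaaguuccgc
mmu-miR-24-3p, chr8:84208875-84208896, plus strand: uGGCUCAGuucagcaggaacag
mmu-miR-155-5p, chr16:84714143-84714165, plus strand: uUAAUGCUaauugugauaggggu
The 4 seeds differ. The array values cannot tell a mature strand from its longer precursor.

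Mir27a was at 8.77 in FVB/N spleen 1, at 10.47 and 10.49 in spleens 2 and 3, and at 7.02 to 8.46 in lymphoma (-1.55, adjusted p = 0.0326). Mir23a was at 8.39, 9.82 and 9.83 against 7.39 to 8.19, and Mir24-2 at 7.90, 9.07 and 9.13 against 6.97 to 7.63. Mir155, whose host transcript is induced when B cells are activated, was at 6.20, 7.64 and 7.74 against 5.34 to 6.05 (-1.07, adjusted p = 0.0136). In each of the 4 genes FVB/N spleen 1 lay above the highest lymphoma spleen but nearer to it than to FVB/N spleens 2 and 3. Mir30e did not share the division, with 7.61, 7.56 and 7.71 in FVB/N and 5.52 to 6.78 in lymphoma (-1.07, adjusted p = 0.0200).

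**Figure D5:**
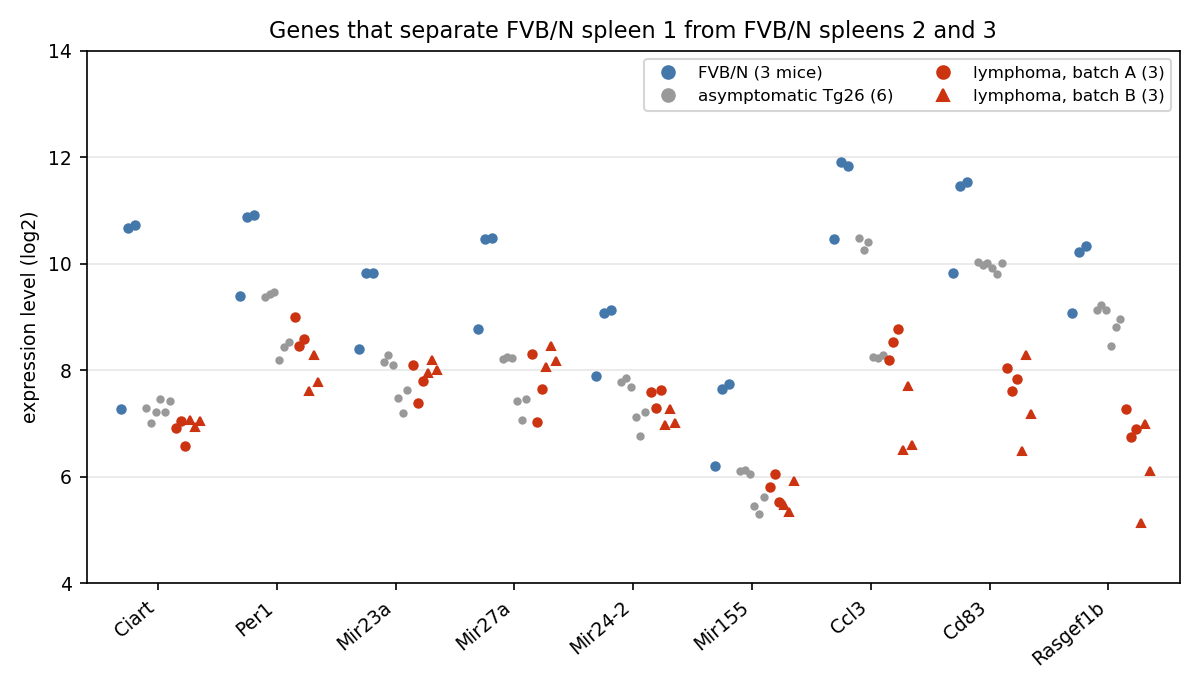
Levels (log2) in each spleen of 9 genes in which FVB/N spleen 1 differs from FVB/N spleens 2 and 3: FVB/N in blue, asymptomatic in grey, lymphoma in red with circles for batch A and triangles for batch B. For Ciart, FVB/N spleen 1 (7.28) lies beside the lymphoma spleens (6.57 to 7.06) and the other FVB/N spleens lie at 10.67 and 10.73.

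Some fitted differences lay far from the plain differences of the spleen measurements. Of the 2462 called genes 860 had overlapping groups and 72 had a plain mean difference of the opposite sign. Adipoq, a fat cell hormone, was at 4.50, 4.76 and 4.63 in FVB/N and at 4.17 to 4.93 in lymphoma, with a plain difference of 0.0074, a fitted one of -1.91 (adjusted p = 0.0494) and 0.03 within batch A. Plin1, also of fat cells, likewise had -1.55 in the fit and -0.32 within batch A. The Y-linked genes Eif2s3y, Kdm5d and Uty were called lower (-5.24, -3.71 and -3.67) and Xist higher (5.66), none of them within batch A. Eif2s3y was at 4.06 and 3.59 in lymphoma spleens 3 and 5, those with high Xist, and at 8.82 or more in the other 4, while Kdm5d was also low in lymphoma spleen 1 (6.30, against 8.61 to 8.66 in FVB/N). None of the 4 sex-linked genes was called without mice 3 and 5, and each of the 24 genes named for the largest changes kept its call without them.

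The same mice gave lymph node arrays, and the change there was tested against that in spleen as an interaction over all 30 arrays. The fit has no term for the mouse, so its p-values treat the 2 arrays of a mouse as independent. In 189 genes (0.948%) the change differed. Of the 24 genes with the largest changes 2 did. Adgrg1 rose by more in the node (4.84) than in the spleen (3.38), a difference of 1.47 ± 0.32 (adjusted p = 0.0293). Ccl3 was 1.22 higher in lymphoma nodes (adjusted p = 0.069) and fell by 1.75 in the spleen, a difference of 2.98 ± 0.52 (adjusted p = 0.00656). For Igll1 and Rag1 the node rises were 5.25 and 4.56, and the difference between tissues did not pass (adjusted p = 0.672 and 0.813).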

How the data were processed

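RNA from spleen and lymph node of 15 mice was hybridised to 30 arrays. The deposited values are log2 expression levels that the authors normalized with fRMA, per the series' design text. Array medians ran from 6.67 to 6.89, and the number of arrays limits the precision. Of 35556 probe sets with values, 21789 carry 1 gene symbol (21698 matched to RefSeq), 1621 carry several and 12146 are not listed, and the probe set with the highest mean stood for each of 19938 genes (999 had more than 1). No column belonged to another series.

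The main model followed the design text: limma 3.58.1 in R 4.3.3 with 6 groups over all 30 arrays and surrogate variables, whose number the sources used here do not give. They were estimated by an iteratively reweighted procedure (5 iterations, 20 permutations, p limit 0.1), which gave 6 on the 30 arrays. The procedure was also run on data simulated from these arrays, and the outcome is not given here. The contrast was called at a Benjamini-Hochberg adjusted p under 0.05. A second model used the 18 arrays of batch A with 6 groups and no surrogate variables. The smallest 2-sided p of an exact permutation test of 6 against 3 spleens is 0.0119.

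The text names the 12 largest rises and 12 largest falls by measured mean difference among genes called with the same sign in both models and measured on that side, without genes named only by prediction or clone, genes of small RNAs, and variable segments of antigen receptors. Of each of 35 lists it names up to 4 genes with the smallest adjusted p, those that complete a count of 5 or fewer, and those that define the list or stand for a role in it. Members and lists were chosen with earlier results of these data known, and a few genes (Igf2, Il1r2, Fos and 4 microRNA genes) after their values were seen. The labels do not say whether same-numbered mice of different groups were paired. In batch A, deviations of same-numbered FVB/N and lymphoma spleens correlated at 0.234, 0.048 and 0.140, and those of different numbers at -0.192 to 0.150. Alternatives were other covariates, arrays, normalizations, filters and mice left out.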

Additional observations from a re-analysis of the deposited data

Results flagged for a closer look

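Among the 6 lymphoma spleens, the mean level of 3 gene lists had a single spleen far from the rest by Dixon's criterion, out of 59 sets of 6 values examined, of which chance gives about 1 in 20. The mean of the NF-kB list was 7.856 in lymphoma mouse 4, and the next lowest was 8.351. The mean of the exocrine pancreas list was 7 in lymphoma mouse 1, next to 6.338, while asymptomatic spleens reached 8.70. The mean of the adipose and muscle list was 6.021 in lymphoma mouse 1, next to 6.192.

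The change from FVB/N to lymphoma differed between lymph node and spleen in 2 of the 24 genes with the largest spleen changes (limma interaction term). The fit did not account for both tissues coming from the same mice. The node exceeded the spleen by 1.47 for Adgrg1 (4.84 in the node, adjusted p = 0.0293) and by 2.98 for Ccl3 (1.22 in the node, adjusted p = 0.00656).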

How the results depend on the processing

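The number of called genes, 2462, moved by over 1.5 times under 7 settings besides single mice left out. It was 3976 over 15 spleen arrays with batch as a term, 4495 over the 6 spleen arrays of batch A and 5110 with surrogate variables of the spleen arrays alone. It was 1486 with FVB/N spleens 2 and 3 averaged, 530 with both left out and 3994 without lymphoma mice 3 and 5, and the last 4 of these settings were chosen after seeing the data. With the replicate block over 15 spleen arrays it was 3899. The labels do not say that the numbers pair the mice, and not every spleen correlated best with its own number. Leaving out 1 mouse gave 1605 to 4495 calls, and 1874 to 2823 within batch A, where the count with all mice was 3177. The count of genes that differ between node and spleen fell from 189 to 69 with neither surrogate variables nor a batch term. The cause of these shifts was not tested. Of 648 values of the 24 named genes under 27 other settings, 635 kept direction and call, 13 lost the call and 0 reversed. The 24 genes were picked by their calls in the main and batch A fits and by the size of their change. The batch A fit is itself among the 27 settings, so its values were bound to keep the call. The other settings reuse many of the same arrays, so these numbers are no independent test. With 3 FVB/N mice, all in batch A and 2 of them nearly alike, the spread between control mice is poorly known.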

Other observations

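A few genes were high in some lymphoma spleens and not in others. Igf2, a growth factor of fetal tissues, was at 6.32, 6.50 and 6.59 in FVB/N. It was at 10.54, 10.92 and 12.78 in lymphoma spleens 3, 4 and 5 and at 6.17, 6.38 and 5.55 in spleens 1, 2 and 6. Its fitted difference was 4.58 (limma, adjusted p = 0.00559), against 1.23 within batch A (adjusted p = 0.567). Il1r2, a decoy receptor for interleukin-1, was at 10.12 and 11.05 in lymphoma spleens 4 and 5 and at 6.12 to 8.68 in the other 4, against 7.01 to 7.95 in FVB/N, and its difference within batch A was 0.31 (adjusted p = 0.836). Cdh1, which encodes E-cadherin, was at 8.25 and 8.99 in lymphoma spleens 3 and 5.

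Of 19 oxidative phosphorylation genes 1 fell (Sdha, -0.55) and none rose in the fit, while within batch A 3 rose and Sdha was not called (adjusted p = 0.979). Over all genes, the measure for each list of this paragraph, 7.1% were higher and 5.25% lower in the fit. Within batch A these shares were 8.65% and 7.28%. The list mean was 9.52 to 9.55 in FVB/N, 10.08 to 10.13 in lymphoma of batch A and 9.63 to 9.74 in lymphoma of batch B. Of 17 glycolysis and hypoxia genes Slc2a1 and Hif1a fell by 0.70 and 0.46 and none rose, while within batch A the same 2 genes were called lower and Tpi1, Pgk1 and Pgam1 higher (0.78, 0.80 and 0.63). Hk2 was called lower too (-1.01), but its plain mean difference was positive (0.14) and it was not called within batch A. Among 10 mesothelium and epithelium genes Wt1, Lrrn4 and Cdh1 were called higher, Wt1 with a plain mean difference of -0.18, and 1 was called without lymphoma mouse 3 or 5. Within batch A Lrrn4 was called (1.81), and Wt1 and Cdh1 were not (adjusted p = 0.838 and 0.977).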
